A study of Mus musculus with 4 samples.

Results

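Transcript levels of 33 genes that encode subunits of the BAF and Polycomb chromatin complexes were examined in cultured mouse neural stem cells. The 33 members were taken by gene symbol among the protein-coding rows of the table, which lists 55487 genes in all, and each was found once. Of them, 21 encode BAF subunits and 12 encode Polycomb proteins. The measurements came from 4 libraries of primary neural stem cells grown from embryonic neocortex, with 1 library per group. The control carried homozygous floxed Tut1 alleles (Tut1f/f) and was given empty lipid nanoparticles (LNP). The Tut1 KO library had the same genotype and was given LNP loaded with mRNA for Cre recombinase (Cre-LNP), which removes DNA between loxP sites. The Trp53 KO library (p53f/f) and the double KO library (Tut1f/f;p53f/f) were given Cre-LNP as well, with Cre treatment for 3 days according to the text of the series. No culture free of floxed alleles was included, although the sample title of the control reads wild type. Only the control and the Tut1 KO library shared a floxed genotype, and the control differed from the other libraries in the particle content also.

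BAF complexes use the energy of ATP to slide or evict nucleosomes, the units of packaged DNA, and thereby open regulatory DNA. They are assembled from families of interchangeable subunits, and dividing neural progenitors are known to use a set of subunits that is exchanged for a neuronal set when cells leave the cycle. Polycomb repressive complex 2 (PRC2) methylates lysine 27 of histone H3, Polycomb repressive complex 1 (PRC1) binds this mark or ubiquitinates histone H2A, and together they keep developmental genes silent. In neural stem cells, Polycomb proteins are known for timing the switch from neuron to glia production and for repressing the Cdkn2a locus, and BAF and Polycomb act against each other at many genes.

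Levels were given in TPM, a transcript abundance scaled for gene length and library total, which allows genes to be compared within a library. The read depth behind TPM is unknown, and with 1 library per group there was no spread between replicates to set a difference against. No test was run for this reason, and all differences below describe these libraries. In the library labelled Tut1 KO, Tut1 itself had 29.8 TPM, above the 12.2 TPM of the control, 12.5 TPM of the Trp53 KO and 13.7 TPM of the double KO library. The floxed Tut1 allele loses a single exon on Cre recombination, so a level over the whole gene does not check this label. Trp53 was at 120 and 100.4 TPM in the libraries with intact Trp53 and at 39.7 and 41.9 TPM in those labelled as deleted. Xist was at 188 TPM in Tut1 KO and 204 TPM in Trp53 KO cells and at or under 0.01 TPM in control and double KO cells, where the Y-linked gene Ddx3y had 24.4 and 25.7 TPM, so the cultures differed in sex in a way the genotypes do not follow. The cell type label was checked against markers. The 10 neural stem cell markers summed to between 10695 and 12588 TPM, and 9 of them had at least 10 TPM in every library. Fabp7 (7902 to 9441 TPM) and Vim (1693 to 2039 TPM) made up most of this sum, while Pax6 had 13.8 to 18.1 TPM. The neuronal sum was 190 to 266 TPM, of which Map2 made up the largest share, whereas Stmn2 stayed at or under 0.11 TPM. Oligodendrocyte lineage markers summed to 1565 to 1765 TPM, led by Olig1 and Olig2, and astrocyte markers to 133 to 143 TPM with Gfap under 1 TPM. Microglial, endothelial and fibroblast or mural markers summed to at most 0.75, 1.14 and 2.93 TPM. In such bulk libraries fewer cells of a type and less RNA per cell cannot be told apart.

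The progenitor and neuronal forms of one BAF subunit, Actl6a (BAF53a) and Actl6b (BAF53b), showed the widest gap between paralogs. Their promoters are shown here to set the sequence beside this gap. Each stretch spans 300 bases around the RefSeq start, most of them upstream, on the plus strand of GRCm38.p6, with CpG dinucleotides in capitals. Actl6a lies at chr3:32708296-32708595 and Actl6b at chr5:137553296-137553595.
Actl6a: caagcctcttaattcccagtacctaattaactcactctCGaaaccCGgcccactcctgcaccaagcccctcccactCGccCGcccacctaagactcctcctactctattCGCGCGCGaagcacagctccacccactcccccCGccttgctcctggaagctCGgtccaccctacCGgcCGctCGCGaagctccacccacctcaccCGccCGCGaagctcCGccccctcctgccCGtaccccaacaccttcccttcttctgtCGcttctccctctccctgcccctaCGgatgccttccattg
Actl6b: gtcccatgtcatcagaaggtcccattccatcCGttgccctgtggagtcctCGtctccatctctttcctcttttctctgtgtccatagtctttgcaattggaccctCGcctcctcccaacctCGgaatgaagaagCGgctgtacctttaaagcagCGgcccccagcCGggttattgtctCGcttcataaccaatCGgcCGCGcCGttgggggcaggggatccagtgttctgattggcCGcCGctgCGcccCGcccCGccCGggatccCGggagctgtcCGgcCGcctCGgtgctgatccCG
Both promoters were rich in CpG, with 21 CpG for Actl6a and 23 CpG for Actl6b, although their transcripts differed by 180 to 513 times in TPM. RefSeq promoters of 300 bases were found for 29 of the 33 members, 34 promoters in all. These had a median of 31 CpG, against 7 CpG over all 32851 promoters in the table. An E2F-type motif of 7 letters (TTCCCGC or any of TTCGCGC and TTGCCGC and TTGGCGC, on either strand) was present in 8 of the 34 member promoters (23.5%) and in 9.57% of all promoters. Each form of the motif contains a CpG, the shares were not matched for CpG content, and nothing particular to the members is read from them. Actl6a, Phf10, Ezh2, Suz12, Arid1a, Brd7, Smarcb1 and Smarcd1 held a match, which for Actl6a was TTCGCGC and lies in a run of CpG, and Actl6b held none. A match of letters is a description of the sequence and not a measured binding site.

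Most members were expressed well above the level at which a gene entered the comparisons, 10 TPM in at least 1 of the libraries compared. Over all 4 libraries, 28 of the 33 members reached this level, and so did 9314 genes of the whole table. The 5 members below it were Actl6b, Arid1b, Ezh1, Cbx2 and Cbx7. Cbx2 lay just under the limit with 7.51 to 9.87 TPM, and Smarcd2 just above it with 9.80 to 12.7 TPM. Summed over all 33 members, the level was 1841 TPM in control, 1650 TPM in Tut1 KO, 1769 TPM in Trp53 KO and 1816 TPM in double KO cells. The range of a member was defined as its highest minus its lowest log2(TPM + 1) over the 4 libraries. The median range of the 28 members was 0.35, beside 0.39 over all 9314 genes. A range of at least 1, a doubling on this scale, was reached by 2 of 28 members, Smarca2 and Jarid2, and by 9.28% of all genes. A range under 1.5-fold was seen for 22 of 28 members (78.6%) and for 75.6% of all genes, so the members as a group were about as even between libraries as other genes of this level.

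**Figure D1:**
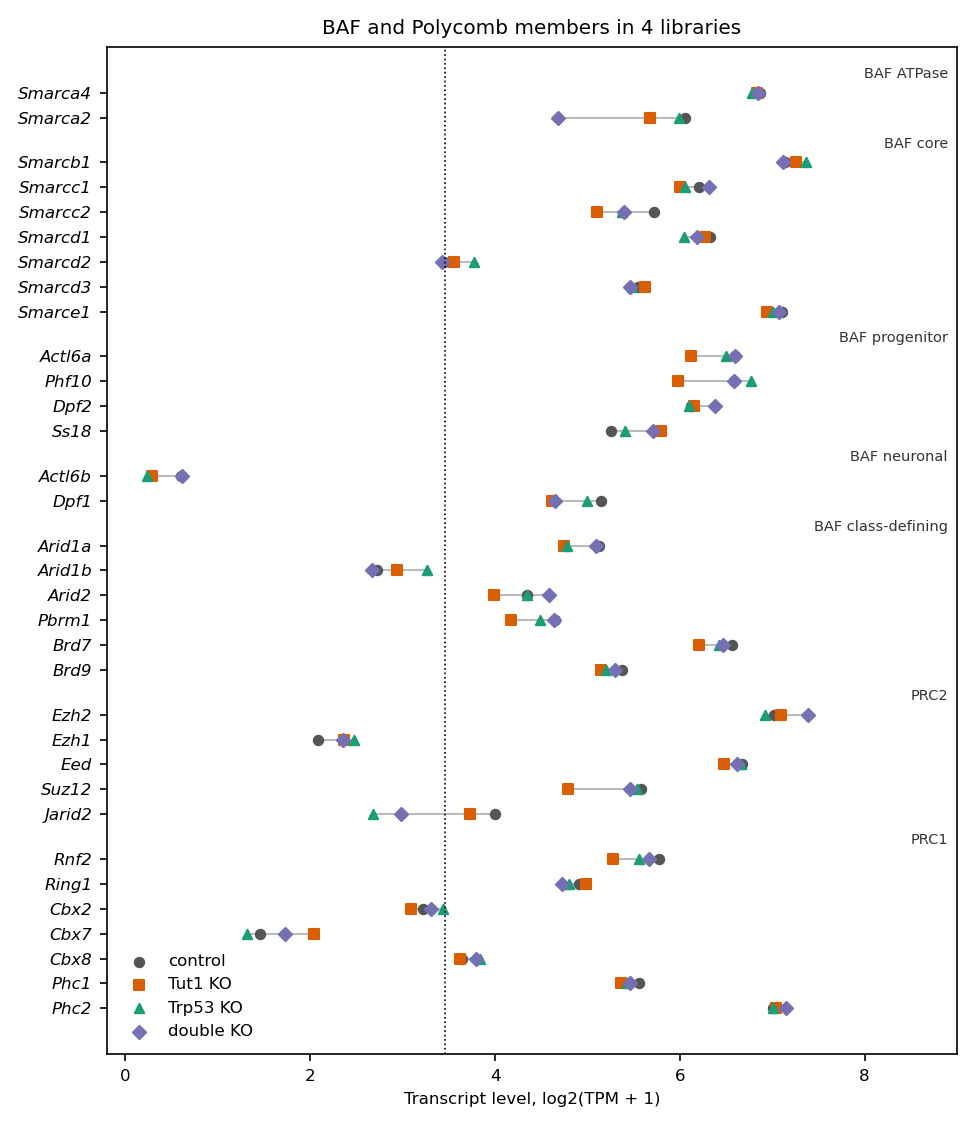
Level of each of the 33 members as log2(TPM + 1) on the horizontal axis, 1 symbol per library, ordered by role in the complexes, with a dotted line at 10 TPM. The symbols of most members lie close together, while Smarca2 is lowest in the double KO library and Jarid2 is low in both libraries labelled as Trp53-deleted.

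The ATPase of a BAF complex is either Smarca4 (BRG1) or Smarca2 (BRM), and these differed most in how they varied. Smarca4, the form known to be needed by neural progenitors, had 116 TPM in control, 113 TPM in Tut1 KO, 109 TPM in Trp53 KO and 114 TPM in double KO cells. It had the narrowest range of the 28 members, 0.08 on the log2 scale. Smarca2 had 65.7 TPM in control, 50.3 TPM in Tut1 KO, 62.7 TPM in Trp53 KO and 24.7 TPM in double KO cells. The double KO library alone was low, and the other libraries lay between 50.3 and 65.7 TPM.
The TPM of Smarca4 was 1.76 times that of Smarca2 in the control, 2.25 times in the Tut1 KO, 1.74 times in the Trp53 KO and 4.61 times in the double KO library. Smarca2 (ENSMUSG00000024921) lies on chromosome 19 from 26605050 to 26778322, plus strand (GRCm38). The only gene whose exons overlap it is on the opposite strand and had at most 0.3 TPM. Within 1 Mb of Smarca2, 3 other genes were tested in double KO minus Trp53 KO, none of which was past 1.5-fold, with differences from -0.33 to 0.22.

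Among the core subunits, present in most forms of the complex, Smarcb1 and Smarce1 were the most abundant, and Smarcc2 alone had a range past 1.5-fold. Smarcb1 (SNF5), a core subunit that contacts the nucleosome, had between 138 and 163 TPM and Smarce1 (BAF57), a DNA-binding subunit, between 122 and 137 TPM. Of the scaffold paralogs, Smarcc1 (BAF155) had 62.9 to 78.5 TPM and Smarcc2 (BAF170) 33.3 to 51.8 TPM. Smarcc1 exceeded Smarcc2 in every library, by 1.41 to 1.91 times. Smarcc2 was highest in the control (51.8 TPM) and lowest in the Tut1 KO library (33.3 TPM), with 40.4 and 41.2 TPM in the Trp53 KO and double KO libraries. Among the BAF60 paralogs, which link the complex to transcription factors, Smarcd1 had 65.0 to 79.6 TPM, Smarcd3 43.0 to 48.4 TPM and Smarcd2 9.80 to 12.7 TPM. The order Smarcd1, Smarcd3, Smarcd2 was the same in all 4 libraries.

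Progenitor subunits exceeded neuronal subunits in each library, but the neuronal subunits were not uniformly low. Actl6a, an actin-related subunit of progenitor BAF, had 96.1 TPM in control, 68.6 TPM in Tut1 KO, 89.5 TPM in Trp53 KO and 95.9 TPM in double KO cells. Its neuronal paralog Actl6b had 0.52, 0.22, 0.17 and 0.53 TPM in the same order. The TPM of Actl6a was thus 180 to 513 times that of Actl6b, and differences of Actl6b itself are too close to 0 to be read. Phf10 (BAF45a), a PHD finger subunit of progenitors, had 95.4 TPM in control, 62.3 TPM in Tut1 KO, 109 TPM in Trp53 KO and 95.2 TPM in double KO cells. Dpf1 (BAF45b), which is exchanged for it in neurons, had 34.3, 23.6, 31 and 24.1 TPM in the same order. Phf10 therefore exceeded Dpf1 by only 2.64 to 3.95 times, far less than the gap of the Actl6 pair.
Dpf2 (BAF45d), another family member, had 67.7 to 82.3 TPM with the double KO library highest. Ss18, the progenitor subunit whose neuronal paralog is Ss18l1 (CREST), had 37.3 TPM in control, 54.7 TPM in Tut1 KO, 41.4 TPM in Trp53 KO and 51.2 TPM in double KO cells. Ss18 was thus higher in both libraries with a Tut1 deletion in the label, by 0.54 against the control and by 0.30 for the double KO against Trp53 KO cells on the log2(TPM + 1) scale, both under 1.5-fold. After the GC content and length correction described below, Ss18 was at 0.78 in Tut1 KO minus control, past 1.5-fold, and at 0.20 in double KO minus Trp53 KO. In Tut1 KO minus control it was also past 1.5-fold with the median of all genes set to 0 and after quantile normalization. Of the neuronal subunits outside the member list, Dpf3 (BAF45c) had 25.7 to 34.9 TPM and Ss18l1 8.25 to 9.10 TPM.

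Summed over the progenitor subunits Actl6a, Phf10, Dpf2 and Ss18, the level was 298 TPM in control, 256 TPM in Tut1 KO, 307 TPM in Trp53 KO and 325 TPM in double KO cells. The neuronal subunits of the member list, Actl6b and Dpf1, summed to 34.8, 23.8, 31.2 and 24.6 TPM. Nearly all of this sum was Dpf1, and it holds fewer genes than the progenitor sum, which adds to the size of their ratio. The progenitor sum was 8.54 times the neuronal sum in the control, 10.8 times in the Tut1 KO, 9.85 times in the Trp53 KO and 13.2 times in the double KO library. With Dpf3 and Ss18l1 counted as neuronal, these values were 4.15, 3.93, 4.13 and 5.47, and the Tut1 KO library then lay lowest instead of the control. The double KO library was highest under both ways of summing. Neuronal marker sums in the same libraries were 266 TPM in control, 190 TPM in Tut1 KO, 235 TPM in Trp53 KO and 243 TPM in double KO cells, and their part in these ratios was not tested.

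**Figure D2:**
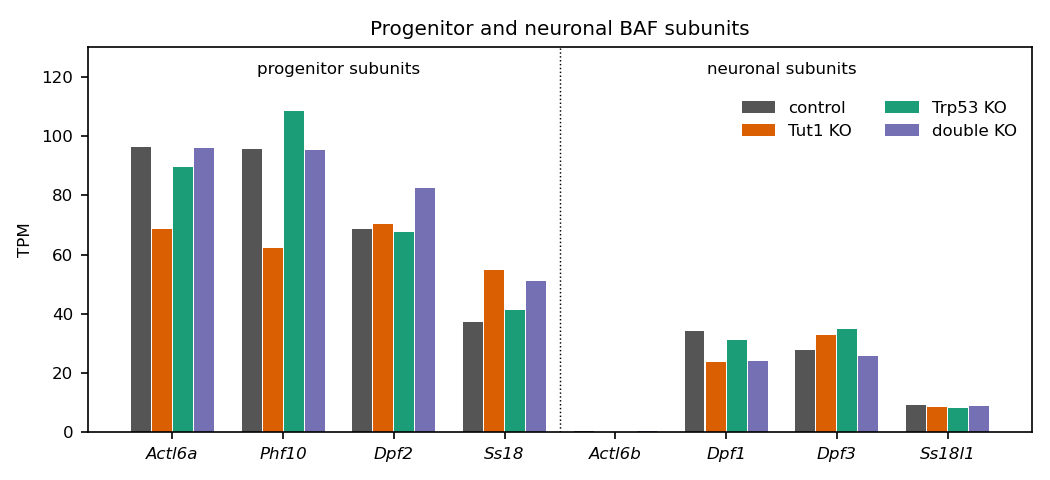
TPM of 4 progenitor and 4 neuronal BAF subunits, 1 bar per library on a linear axis from 0. Actl6b is near 0 in every library, whereas Dpf1 and Dpf3 lie between 23.6 and 34.9 TPM.

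The subunits that define the classes of BAF complex kept the same order in all 4 libraries, from Brd7 over Brd9, Arid1a, Pbrm1 and Arid2 to Arid1b. Arid1a, the large DNA-binding subunit of canonical BAF, had 33.9 TPM in control, 25.8 TPM in Tut1 KO, 26.5 TPM in Trp53 KO and 33.3 TPM in double KO cells. Its alternative Arid1b had 5.61, 6.68, 8.60 and 5.37 TPM in the same order. Where Arid1a was lower, Arid1b was higher, so their TPM ratio was 6.04 in the control and 6.20 in the double KO library against 3.86 in the Tut1 KO and 3.08 in the Trp53 KO library. This split follows the Xist-expressing libraries, and genotype and sex cannot be told apart in it. Arid1b was under 10 TPM throughout and entered no comparison.
The PBAF subunits Arid2, Pbrm1 (polybromo) and Brd7 had 14.9 to 22.9 TPM, 17 to 24.0 TPM and 72.9 to 93.7 TPM, with the Tut1 KO library lowest for each. Brd9, a bromodomain subunit of the non-canonical form of the complex, had 34.3 to 40.6 TPM and was lowest in the Tut1 KO library too. After the GC content and length correction described below, Tut1 KO minus control was -0.06 for Arid2 and Pbrm1 and -0.21 for Brd7. Brd9 was then at -0.09, with -0.11 in Trp53 KO minus control, so the Tut1 KO library was no longer its lowest.

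Of the 5 PRC2 members, Ezh2 had the highest level in every library. Rbbp4, a histone-binding subunit that PRC2 shares with other complexes and no member here, was higher still, with 170 to 199.8 TPM. Ezh2, the methyltransferase typical of dividing cells, had 128 TPM in control, 136 TPM in Tut1 KO, 120 TPM in Trp53 KO and 166 TPM in double KO cells. Ezh1, the paralog that prevails in resting cells, had 3.24, 4.16, 4.57 and 4.11 TPM. Ezh2 was thus 26.2 to 40.4 times as abundant as Ezh1. Eed, the subunit that reads the methyl mark, was even, with 88.4 to 101 TPM. Suz12, a scaffold that PRC2 cannot do without, had 46.8 TPM in control, 26.8 TPM in Tut1 KO, 45.4 TPM in Trp53 KO and 43.0 TPM in double KO cells, so the Tut1 KO library alone was low.

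Jarid2, an accessory subunit that guides PRC2 to chromatin, had 15.0 TPM in control, 12.3 TPM in Tut1 KO, 5.43 TPM in Trp53 KO and 6.91 TPM in double KO cells. Both libraries labelled as Trp53-deleted lay below both libraries with intact Trp53. Jarid2 (ENSMUSG00000038518) lies on chromosome 13 from 44729474 to 44921643, plus strand (GRCm38), and no annotated exon of another gene overlaps it. Within 1 Mb, 2 other genes were tested in Trp53 KO minus control and differed by 0.02 and 0.64, neither of them lower.
Mtf2, an accessory subunit of the PRC2 form that lacks Jarid2, was lowest in the control, where Jarid2 was highest. It had 9.78 TPM in control, 15.2 TPM in Tut1 KO, 20.7 TPM in Trp53 KO and 24.4 TPM in double KO cells. The TPM of Mtf2 was 0.65 times that of Jarid2 in the control, 1.24 times in the Tut1 KO, 3.80 times in the Trp53 KO and 3.53 times in the double KO library. Mtf2 was not a member and was named because it passed 1.5-fold, so the pairing with Jarid2 was chosen after the values were seen.

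**Figure D3:**
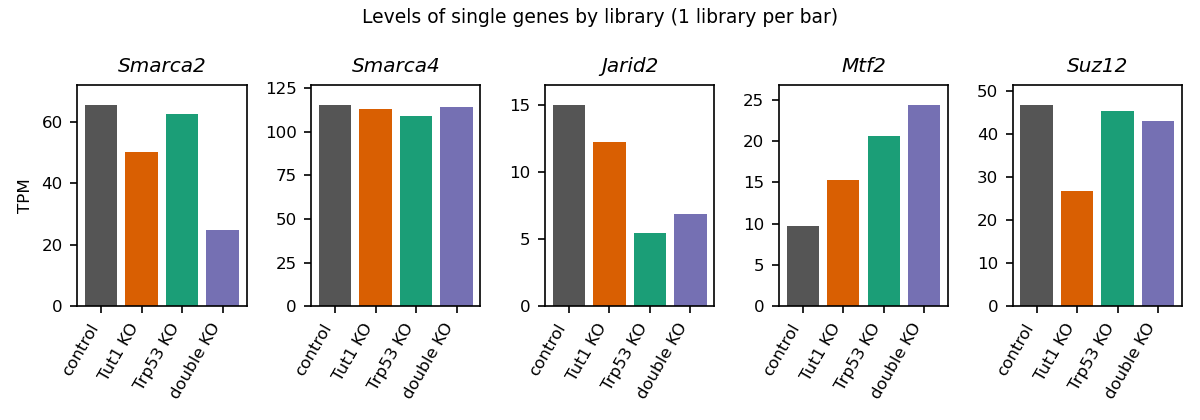
TPM of Smarca2, Smarca4, Jarid2, Mtf2 and Suz12 in the 4 libraries, 1 bar per library, each panel with its own linear axis from 0. Smarca2 is low in the double KO library (24.7 TPM), Jarid2 in the Trp53 KO and double KO libraries (5.43 and 6.91 TPM), and Suz12 in the Tut1 KO library (26.8 TPM).

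Of the 7 PRC1 members, 5 reached 10 TPM, and each of these had a range under 1.5-fold. The ubiquitin ligase Rnf2 (RING1B) had 53.8 TPM in control, 37.8 TPM in Tut1 KO, 46.2 TPM in Trp53 KO and 49.8 TPM in double KO cells. Its paralog Ring1 (RING1A) had 25.4 to 30.6 TPM. Rnf2 exceeded Ring1 in each library, by 1.23 times in the Tut1 KO and by up to 1.96 times in the double KO library. The Polyhomeotic proteins, which let PRC1 cluster, were Phc2 with 128 to 141 TPM and Phc1 with 40.3 to 46.2 TPM. Among the chromobox proteins that read the PRC2 mark, Cbx8 had 11.3 to 13.3 TPM, Cbx2 7.51 to 9.87 TPM and Cbx7 1.49 to 3.12 TPM.

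Next, the libraries were compared pairwise as differences in log2(TPM + 1), a scale on which changes of weakly expressed genes appear smaller. A gene was called at a difference of at least 1, and a 1.5-fold difference was used as a second limit. The effect of the Tut1 label was read from Tut1 KO minus control, where the particle content differed too, and from double KO minus Trp53 KO, where both cultures had received Cre-LNP. These contrasts share no library. The Xist-expressing library is the one labelled as Tut1-deleted in Tut1 KO minus control and the one with intact Tut1 in double KO minus Trp53 KO. Genotype and sex cannot be told apart in either contrast alone. In Tut1 KO minus control, 28 members were tested and none was called, where 4.1% of all 9032 genes were. At 1.5-fold, 3 members were lower, namely Suz12 (-0.78), Smarcc2 (-0.62) and Phf10 (-0.61), which is 3 of 28 beside 8.1% of all genes. After the GC content and length correction described below none of them passed 1.5-fold (-0.46, -0.57 and -0.32), and Suz12 alone passed it with the median of all genes set to 0, after quantile normalization or with a pseudocount of 5. No member was higher at 1.5-fold, beside 4.01% of all genes, although Ss18 passed this limit after the correction, with the median of all genes set to 0 and after quantile normalization. The largest positive difference was that of Ss18 (0.54). The median difference was -0.24 for the 19 BAF members and -0.19 for the 9 Polycomb members tested, against -0.09 for all genes. After the GC content and length correction, these were -0.06 for BAF and -0.04 for Polycomb members. Of the 28 members, 20 lay below 0 (71.4%), as did 60.7% of all genes.

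In double KO minus Trp53 KO, 27 members were tested, Jarid2 being under 10 TPM in both libraries. Smarca2 alone was called (-1.31), beside 3.21% of all 8976 genes. It was also the only member lower at 1.5-fold, beside 4.41% of all genes, and none was higher, beside 3.48%. The next largest difference was that of Ezh2 (0.47). The median was 0.07 for BAF members and 0.00 for Polycomb members, with 0.05 over all genes. No member was past 1.5-fold in both contrasts of the Tut1 label, where 1.07% of 9314 genes were lower in both, 0.633% higher in both and 1.43% past it in opposite directions. Suz12, Smarcc2 and Phf10, lower in the first contrast, had -0.08, 0.03 and -0.19 in the other.

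The Trp53 label was read from Trp53 KO minus control, where the particle content differed, and from double KO minus Tut1 KO, again without a shared library. In the first of these the Xist-expressing library is the one labelled as Trp53-deleted, and in the other it is the one with intact Trp53. In Trp53 KO minus control, 28 members were tested and Jarid2 alone was called (-1.32), beside 3.83% of all 9055 genes. It was the only member lower at 1.5-fold, beside 4.33% of all genes, and none was higher, beside 4.09%. In double KO minus Tut1 KO, none of 28 members was called, beside 3.9% of all 8950 genes, although Smarca2 was at -0.99. Smarca2 was called in this contrast in 6 of 10 alternative settings. At 1.5-fold, Smarca2 and Jarid2 (-0.75) were lower, beside 4.18% of all genes. Suz12 (0.66), Phf10 (0.60) and Arid2 (0.59) were higher, beside 6.49% of all genes. After the GC content and length correction described below these were at 0.34, 0.32 and 0.32, all under 1.5-fold, as they also were with the median of all genes set to 0 or after quantile normalization. The median in Trp53 KO minus control was -0.10 for both BAF and Polycomb members, against -0.05 for all genes. In double KO minus Tut1 KO the medians lay on the other side of 0, at 0.16 for BAF and 0.13 for Polycomb members, against 0.09 for all genes. Jarid2 was the only member lower at 1.5-fold in both contrasts of the Trp53 label, as were 104 of 9314 genes (1.12%), and no member was higher in both, beside 0.773% of all genes. With a pseudocount of 5, Jarid2 was no longer past 1.5-fold in double KO minus Tut1 KO (-0.54) and no longer called in Trp53 KO minus control (-0.94), and the gene was not tested when 10 TPM was asked of both libraries.

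In double KO minus control, which shares libraries with the contrasts above, 27 members were tested. Smarca2 (-1.37) and Jarid2 (-1.02) were called, beside 3.31% of all 9022 genes. The same genes were the members lower at 1.5-fold, beside 4.38% of all genes, and none was higher, beside 3.38%. Jarid2 was under the limit here with a pseudocount of 5 (-0.75), after quantile normalization (-0.99) and after the GC content and length correction described below (-0.98), and was not tested when 10 TPM was asked of both libraries. With 0, 1 or 2 members called per contrast, the counts were near what the share of all genes called gives for a list of this size, and they describe Smarca2 and Jarid2 rather than the complexes.

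**Figure D4:**
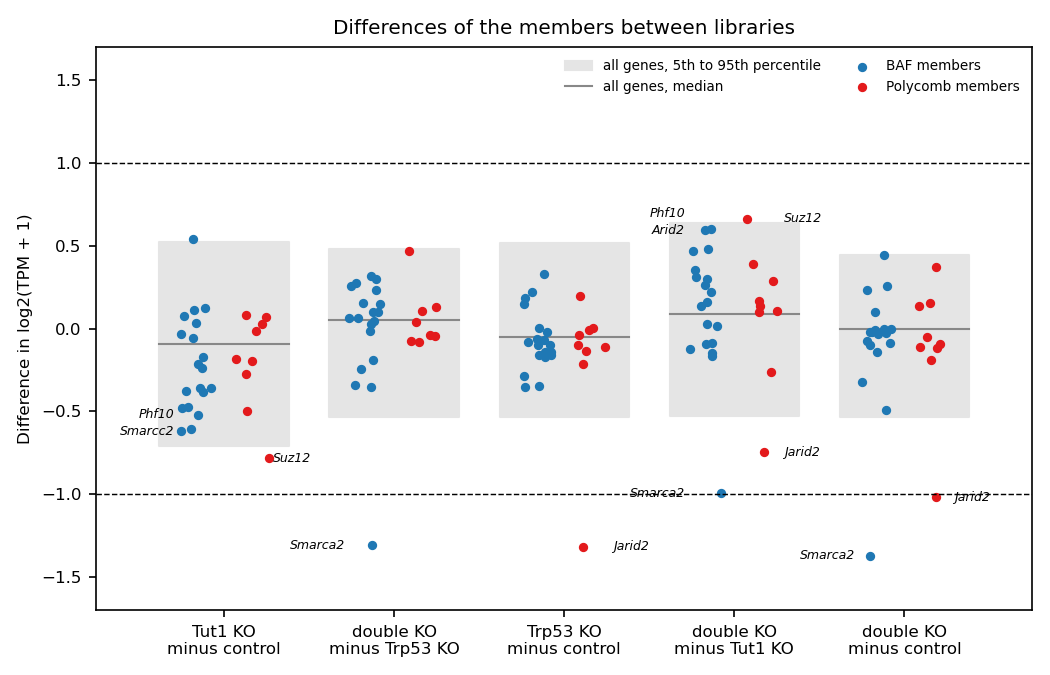
Difference in log2(TPM + 1) of each tested member in 5 contrasts, BAF members in blue and Polycomb members in red, with names for differences past 1.5-fold. Grey boxes span the 5th to 95th percentile of all genes tested with their median as a line, and dashed lines mark a difference of 1, which Smarca2 and Jarid2 pass.

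Values in the Tut1 KO library were also set beside base composition, whose part in the members' differences was not tested. Of the 28 members, 16 had their lowest level in this library, which was also the lowest library for 41.1% of all genes. Over 9023 genes, Spearman's rho between GC content of the longest transcript and Tut1 KO minus control was 0.402, a description across genes within these libraries. Over the 28 members rho was 0.303. Over all genes rho was -0.454 in double KO minus Tut1 KO, which holds the same library. Among 10 equal bins of GC content, the lowest had a median difference of -0.34 and the highest 0.11. Suz12 (41.6% GC), Phf10 (42.4%), Pbrm1 (41.8%) and Rnf2 (39.5%) are among the 7 members with the lowest values of Tut1 KO minus control, and so are Smarcc2 (54.3%), Dpf1 (57.6%) and Actl6a (49.1%). Smarce1, with the lowest GC content of the members tested (39.1%), was at -0.17, and Ss18 (44.1%) was at 0.54. After a GC content and length trend was removed from each library, Suz12 was at -0.46, Phf10 at -0.32, Pbrm1 at -0.06 and Rnf2 at -0.15, while Smarcc2 was at -0.57, Dpf1 at -0.54 and Actl6a at -0.45. The same correction left Smarca2 at -1.35 in double KO minus Trp53 KO and Jarid2 at -1.22 in Trp53 KO minus control. Phf10 also overlaps 1600012H06Rik on the opposite strand, which had 24.8 TPM in control, 10.9 TPM in Tut1 KO, 26.2 TPM in Trp53 KO and 26.2 TPM in double KO cells, and its part in the Phf10 value was not tested. In all, 14 members overlap exons on the opposite strand and 2 overlap a gene on the same strand. Among the 14 is Pbrm1, opposite Gnl3 with 93.2 to 105.2 TPM. Mtf2, which is not a member, lies opposite Tmed5 with 28.9 to 40.9 TPM. The part of these overlaps in the values was not tested. Whether counting used strand was not given in the sources used here.

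**Figure D5:**
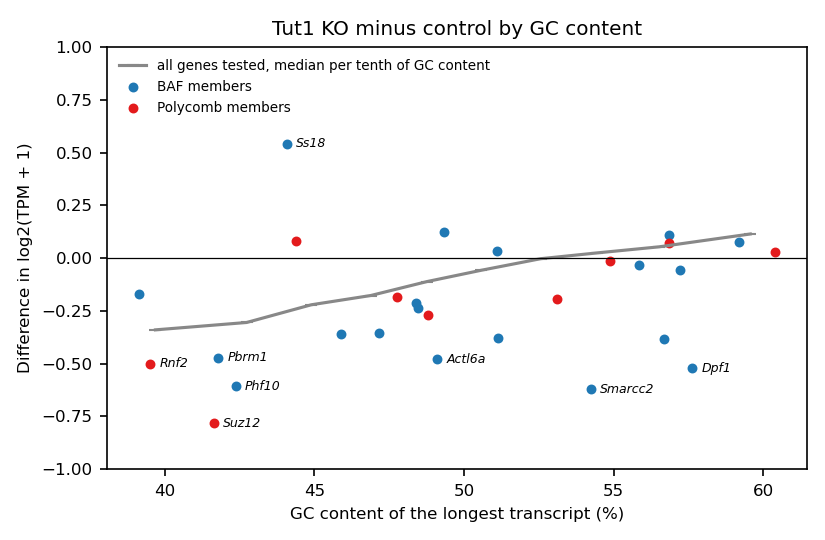
Difference Tut1 KO minus control in log2(TPM + 1) against GC content of the longest transcript in percent, for BAF (blue) and Polycomb (red) members, with the median of all genes in each of 10 bins of GC content as a grey line. The grey line climbs from -0.34 to 0.11, and Suz12, Phf10, Pbrm1 and Rnf2 lie at its low-GC end.

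Other genes of these complexes were read from a list of 42 that excludes the members. In Tut1 KO minus control, 26 of them were tested and none was called. In double KO minus Trp53 KO none of 28 was called, in Trp53 KO minus control Mtf2 of 29 (1.01), in double KO minus Tut1 KO none of 28 and in double KO minus control Mtf2 of 28 (1.24). With a pseudocount of 5 Mtf2 was under the limit in Trp53 KO minus control (0.80), and after the GC content and length correction it passed it in Tut1 KO minus control (1.02). Further genes past 1.5-fold were Pcgf1, Pcgf5 and Kdm6a. Pcgf1, the Polycomb ring finger protein of a variant PRC1, had 18.7 TPM in the control and 25.7 to 29.5 TPM in the other libraries, with 0.63 in Tut1 KO minus control, which became 0.56 after the GC content and length correction and 0.54 with a pseudocount of 5, both under 1.5-fold. Pcgf5, another such protein, had 11.2 TPM in control, 6.26 TPM in Tut1 KO, 12.4 TPM in Trp53 KO and 13.0 TPM in double KO cells. Its difference of -0.74 in Tut1 KO minus control became -0.32 after the GC content and length correction. Kdm6a, an X-linked demethylase that removes the PRC2 mark, had 5.95, 6.20, 11.5 and 8.43 TPM in the same order. Its difference in Trp53 KO minus control was 0.84, which became 0.59 with a pseudocount of 5. The Trp53 KO library was the Xist-expressing one in this contrast, so genotype and sex cannot be told apart in it.

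Known Polycomb targets were then read in the same libraries. Of 39 Hox genes, 33 were listed at 0 in all 4 libraries. Gata6, Sox17 and Tbx5, regulators of other germ layers, were listed at 0 throughout, and Gata4, Foxa2 and Myod1 stayed at or under 0.56 TPM. T (Brachyury), a mesoderm regulator, was higher, with 1.56 to 2.76 TPM. The Cdkn2a locus was not at this level. Cdkn2a, which encodes inhibitors of the cell cycle, had 51.3 TPM in control, 44.7 TPM in Tut1 KO, 62.1 TPM in Trp53 KO and 58.8 TPM in double KO cells. Its neighbour Cdkn2b had 11.4 to 15.3 TPM.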

How the data were processed

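Polyadenylated RNA of 4 cultures was sequenced with a stranded short-read mRNA kit per the labels, but the series' design text names a long-read method. The deposited TPM values were made by the authors. The submitters' processing notes name Trimmomatic, HISAT2, StringTie and mm10. Annotation release and pooling were not given in the sources used here. TPM keeps no depth, so no counting interval was computed.

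Differences were taken as log2(TPM + 1) among genes with at least 10 TPM in at least 1 library compared, called at 1 (2-fold) or at 1.5-fold. With 1 library per group no test was run. Members and lists were chosen with earlier results of these data known. Named genes were all members, library checks, markers, Dpf3, Ss18l1 and those of 42 other complex genes that passed 10 TPM and 1.5-fold. Rbbp4 and the targets named did not pass this rule and were chosen after their values were seen. Positions, GC content and length came from GENCODE M21 (GRCm38), which held 99.5% of the IDs, and promoters from RefSeq (GRCm38.p6). Alternatives were other pseudocounts, TPM minima and scalings and a quadratic GC content and length correction. The code was tested on simulated data. Scripts ran in Python 3.11.15 (pandas 2.3.3, numpy 2.4.6 and scipy 1.17.1), and plots were drawn with matplotlib 3.10.9.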

Additional observations from a re-analysis of the deposited data

How the results depend on the processing

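No paired analysis was possible because each group had 1 library. Without replicates, a value was taken as moved when it shifted by more than the median absolute deviation of all genes in its contrast, and a count when it changed by over 1.5 times. No median of BAF or Polycomb members moved by more than this, but the deviation (0.23 in Tut1 KO minus control) is about as large as these medians, which there ranged from -0.30 to -0.06 for BAF and from -0.19 to -0.04 for Polycomb members, nearest 0 under the GC content and length correction. At the 1.5-fold threshold, members called lower numbered 3 for the Tut1 KO against the control and 2 for the double KO against the Tut1 KO library, where 3 were higher. At the same threshold the other complex genes gave 2 higher and 1 lower for the Tut1 KO against the control, 2 higher for the Trp53 KO against the control and 2 higher in double KO minus Tut1 KO. After the GC content and length correction, none of the 3 members lower in the first contrast, none of the 3 higher in double KO minus Tut1 KO and neither of the other complex genes higher there (Mtf2 and Pcgf5) passed 1.5-fold. In double KO minus Tut1 KO, 1 member (Smarca2) was called lower with a pseudocount of 0.1, medians set to 0, quantile normalization, without mitochondrially encoded and ribosomal protein genes, with protein-coding genes only and after the GC content and length correction. A pseudocount of 5 or 10 TPM in both libraries left 0 members lower and 0 other genes higher in Trp53 KO minus control, with 1 member lower and 0 other genes higher in double KO minus control. Quantile normalization and the GC correction also left 1 member lower there. The GC correction gave 1 other gene (Mtf2) higher in Tut1 KO minus control, and a pseudocount of 0.1 gave 1 (Pcgf5) in double KO minus Tut1 KO. The log2 ratio of progenitor over neuronal subunits, each sum taken plus 1, was 3.06 for control, 3.37 for Tut1 KO, 3.26 for Trp53 KO and 3.67 for double KO cells. With Dpf3 and Ss18l1 added it was 2.04, 1.96, 2.03 and 2.43, and for Actl6a against Actl6b alone 6.0, 5.83, 6.27 and 5.98. The pseudocount sets the last values, since Actl6b is near 0, and their order differs from that of the TPM ratios of 186, 311, 513 and 180. The cause of the other changes was not tested.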
